A study of Mus musculus with 6 samples.

Results

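Cholesterol synthesis in the liver runs from acetyl-CoA through mevalonate and farnesyl diphosphate to squalene, lanosterol and cholesterol. The transcription factor SREBP2 raises the genes of this route when sterols in the endoplasmic reticulum are low: SCAP carries it to the Golgi, the site-1 and site-2 proteases release it, and the INSIG proteins hold it back when sterols are plentiful. Sterols that reach the cell in lipoproteins leave the lysosome through NPC2 and NPC1, move between membranes on carriers such as STARD4 and OSBP, and are stored as esters by SOAT enzymes. The genes described here are 32 members of this system, chosen by name: the enzymes of the route, SREBP2 with its processing machinery, and proteins of sterol transport and esterification. Of the 32, 29 were measured through 64 probe sets of their own, among 18193 genes measured in all. Acat2, Soat1 and Soat2 were not analysed here.

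The data are liver RNA profiles of 6 mice on expression arrays, 1 array per mouse. The mice were females of the inbred strains SM/J (SM, 3 mice) and NZB/BinJ (NZB, 3 mice), each 8 weeks old and unmanipulated, with no transgene or drug in either strain. All 6 were weaned onto chow at 3 weeks, went 4 hours without food before they were killed, and had the liver flushed with 50 mL of phosphate-buffered saline. The study was set up as a direct comparison of the untreated strains. Per the labels, the 3 mice of each strain are biological replicates.

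Values are log2 expression, so a difference of 1 is a 2-fold difference. Differences are NZB minus SM with the standard error (SE) of a limma fit across all genes, and calls rest on an adjusted p (Benjamini-Hochberg, over all genes of the fit) under 0.05. By this threshold 21.0% of all genes were called, 8.47% higher and 12.6% lower in NZB. A gene with several probe sets was read by its brightest one. Hepatocyte markers were high on every array, and their summed level on the log2 scale lay between 16.9 and 17.0. The array of SM replicate 2 went against its label in 1 gene, Xist, the RNA of the inactive X chromosome. The brightest Xist probe set read 7.32 there and 12.6 to 12.9 on the other 5 arrays. Its other probe sets read 4.62 and 4.96 there, against 9.58 to 11.04 and 7.92 to 8.82 on the other arrays. The 11 Y-linked probe sets read 6.54 or less on SM replicate 2, with 6.69 the highest such reading on any array. The counts of called genes are therefore given without that array too.

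Most of the enzyme genes hold the same short motif close to their start, and the sequences of 8 of them are printed here for that reason. RefSeq promoters were found for 26 of the 32 members, each reaching from 250 bases before the transcription start to 50 bases after it. They are of build GRCm38.p6, which is the C57BL/6J genome and neither strain studied here. Fdps, Sqle and Npc1 were among the members without one, so that 8 of the 10 members called higher in NZB were covered. The promoters were searched on both strands for a sterol regulatory element, TCACNCCAC, to which SREBP2 binds. They were also searched for the NF-Y box CCAAT and the Sp1 box GGGCGG, with NF-Y and Sp1 known as partners of SREBP2. The CCAAT letters, which read ATTGG on the other strand, were in a promoter of 16 of 17 enzyme members (94.1%) and in 6 of 9 other members (66.7%), against 42.0% of the 14452 array genes with a promoter in the table. The Sp1 letters were in 15 of 17 enzyme members (88.2%) and 8 of 9 other members (88.9%), against 57.3%. TCACNCCAC was found in 1 member, Hmgcs1, and in 1.46% of the array genes. It did not overlap another motif there. A match is a description of the letters and not a measured binding site.

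The Hmgcs1 promoter is shown in full up to the start because this gene differed most between the strains. It lies at chr13:119690101-119690350 on the plus strand. Capitals mark the sterol regulatory element, at positions -137 to -129 from the start, and 3 CCAAT boxes that lie on the opposite strand.
Hmgcs1: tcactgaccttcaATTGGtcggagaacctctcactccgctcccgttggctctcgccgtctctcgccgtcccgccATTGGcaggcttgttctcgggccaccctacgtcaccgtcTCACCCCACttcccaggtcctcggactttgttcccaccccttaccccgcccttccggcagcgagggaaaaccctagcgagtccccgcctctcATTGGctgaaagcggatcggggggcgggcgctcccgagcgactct

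The last 100 bases before the start are shown for 7 further enzymes, to set genes that were higher in NZB (Lss, Cyp51, Nsdhl and Dhcr7) beside ones whose arrays or probe sets disagreed (Idi1 and Sc5d) and the 1 enzyme that was lower (Hsd17b7). Capitals mark CCAAT on either strand. The 7 were picked from the members that hold such a box in this stretch, so that its presence here is no finding. The stretches are chr13:8885506-8885605 (plus strand) for Idi1, chr10:76531505-76531604 (plus) for Lss, chr5:4104698-4104797 (minus) for Cyp51, chrX:72918421-72918520 (plus) for Nsdhl, chr7:143830114-143830213 (plus) for the last of the Dhcr7 starts in the table, chr9:42264301-42264400 (minus) for Sc5d and chr1:169969206-169969305 (minus) for Hsd17b7.
Idi1: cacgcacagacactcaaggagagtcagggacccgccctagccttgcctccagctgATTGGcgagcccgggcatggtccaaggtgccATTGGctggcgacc
Lss: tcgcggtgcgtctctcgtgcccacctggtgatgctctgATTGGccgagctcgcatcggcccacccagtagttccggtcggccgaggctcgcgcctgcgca
Cyp51: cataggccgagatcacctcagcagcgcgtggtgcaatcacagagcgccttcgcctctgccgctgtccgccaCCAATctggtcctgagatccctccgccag
Nsdhl: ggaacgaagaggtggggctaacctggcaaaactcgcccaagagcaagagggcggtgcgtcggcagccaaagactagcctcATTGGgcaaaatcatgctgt
Dhcr7: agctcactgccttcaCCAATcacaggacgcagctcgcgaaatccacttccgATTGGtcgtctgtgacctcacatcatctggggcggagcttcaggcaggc
Sc5d: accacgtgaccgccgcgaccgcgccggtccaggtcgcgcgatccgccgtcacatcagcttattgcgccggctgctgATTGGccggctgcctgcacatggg
Hsd17b7: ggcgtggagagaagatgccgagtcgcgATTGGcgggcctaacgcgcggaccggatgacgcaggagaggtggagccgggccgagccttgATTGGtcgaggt

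NZB livers held more mRNA of 10 of the 29 measured members and less of 2, and 17 members missed the threshold. All 10 higher members were enzymes of the route (10 of 19 enzymes, beside 8.47% of all genes), and the 2 lower ones were the sterol ketoreductase gene Hsd17b7 and the lysosomal cholesterol exporter gene Npc1 (beside 12.6% of all genes). At least 2-fold higher were Hmgcs1, Fdps, Dhcr7, Sqle and Cyp51. The median difference of the 19 enzymes was 0.40, against 0.02 over all genes. The arrays of the strains did not overlap, with NZB above, for 11 of the 19 enzymes and 19.6% of all genes. Over all 29 members they did not overlap for 15 (39.4% of all genes), with NZB below for 3 (19.7% of all genes). At least 1.5-fold higher were 7 members, all enzymes, beside 1.91% of all genes. Leaving out an array also lowered the share of all genes called higher, so both are given. Without SM replicate 2 the higher members numbered 5 (4.77% of all genes), all of them at least 1.5-fold higher, and the lower ones 2. Without SM replicates 1 and 3 the higher members numbered 13 and 9 (7.16% and 7.93% of all genes). Without NZB replicates 1, 2 and 3 they numbered 6, 6 and 4 (6.33%, 5.61% and 4.96% of all genes). Arrays did not overlap, with NZB above, for 11 of the 19 enzymes without SM replicate 2 (22.9% of all genes). That count could not fall below the one with all arrays, since leaving out an array cannot create overlap.

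**Figure D1:**
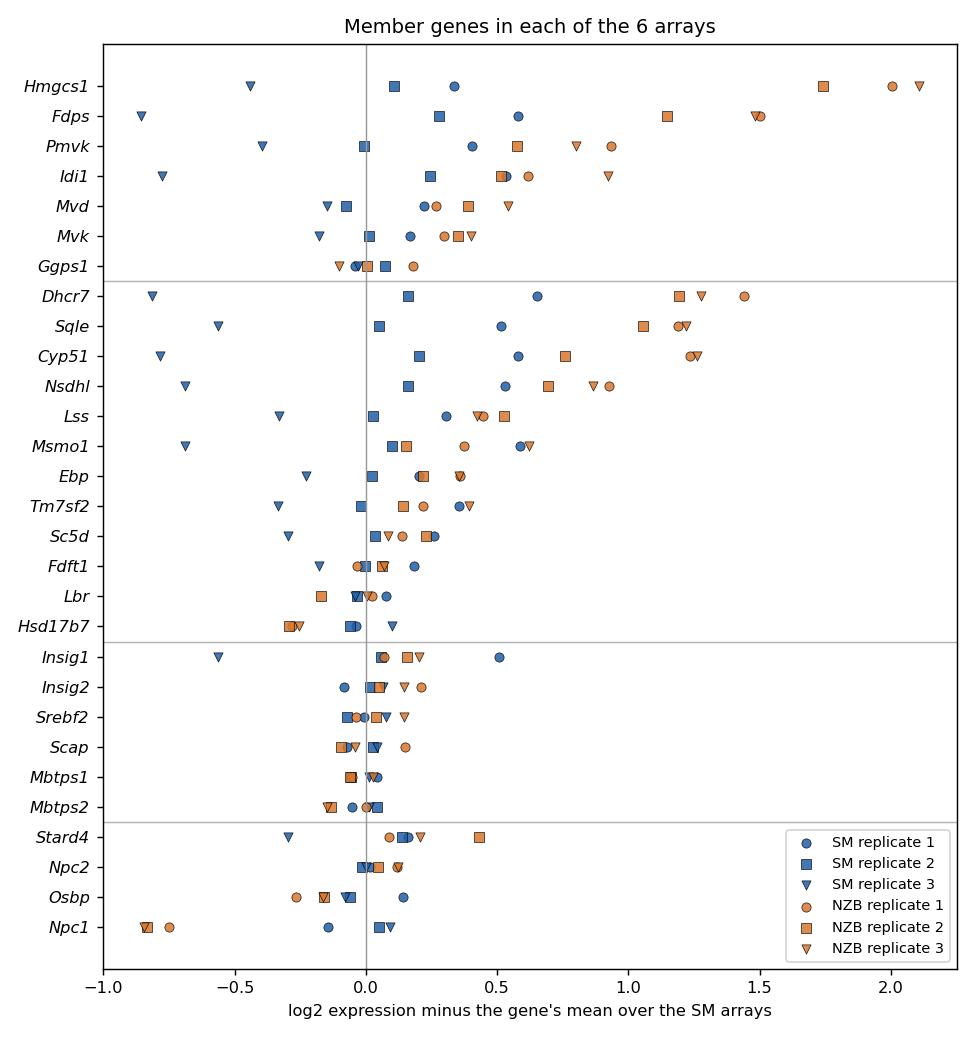
Log2 expression of the 29 measured members on each array, drawn as the distance from the gene's mean over the 3 SM arrays, with SM arrays in blue, NZB arrays in orange and grey lines between the roles. For Hmgcs1 the NZB arrays (12.24 to 12.60) lie far to the right of the SM arrays (10.06 to 10.83), Npc1 lies to the left, and SM replicate 3 is the leftmost point of most enzymes.

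The mevalonate part of the route was represented by 7 measured enzymes, of which 5 rose in NZB and none fell (0 lower at an unadjusted p under 0.05). Without SM replicate 2, 3 rose. Hmgcs1, which joins acetyl-CoA and acetoacetyl-CoA to HMG-CoA, read 10.83, 10.61 and 10.06 on the SM arrays and 12.50, 12.24 and 12.60 on the NZB arrays. The lowest NZB array was well above the highest SM array. The gene was 3.87-fold higher in NZB (1.95, SE 0.18, limma adjusted p = 0.000108, n = 3 each), and the difference kept its call without any single array, at 1.73 to 2.12.

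Mevalonate is then phosphorylated by the products of Mvk and Pmvk and decarboxylated by that of Mvd. Mvk read 8.64, 8.48 and 8.29 in SM and 8.77, 8.82 and 8.87 in NZB, a difference of 0.35 (SE 0.09, limma adjusted p = 0.021). Pmvk read 9.04, 8.63 and 8.24 in SM and 9.57, 9.21 and 9.44 in NZB, a difference of 0.77 (SE 0.18, limma adjusted p = 0.0137). Mvd read 7.54, 7.25 and 7.17 in SM and 7.59, 7.71 and 7.86 in NZB, a difference of 0.40 (SE 0.11, limma adjusted p = 0.0262). In all 3 genes every NZB array lay above every SM array, and for Mvd the closest pair, SM replicate 1 and NZB replicate 1, nearly met. None of these 3 calls held for every array left out: the highest adjusted p was 0.08 for Mvk, 0.0535 for Pmvk and 0.102 for Mvd. The call of Mvk ended without SM replicate 2, NZB replicate 2 or NZB replicate 3, that of Pmvk without NZB replicate 1 or 3, and that of Mvd in 4 fits, those without SM replicates 2 and 3 and those without NZB replicates 2 and 3.

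Isopentenyl diphosphate, the product of these steps, is isomerised by IDI1 and built into farnesyl diphosphate by FDPS. Fdps read 10.58, 10.28 and 9.15 in SM and 11.51, 11.15 and 11.49 in NZB. Every NZB array was above every SM array, and SM replicate 3 lay more than 1 unit below the other 2 SM arrays. The difference was 1.38 (SE 0.30, limma adjusted p = 0.0113, 2.60-fold). Idi1 read 10.57, 10.28 and 9.26 in SM and 10.66, 10.55 and 10.96 in NZB. Here the strains overlapped, and the difference of 0.69 did not pass the test (SE 0.28, limma adjusted p = 0.114, 95% interval 0.06 to 1.31). Ggps1, whose product makes geranylgeranyl diphosphate for protein prenylation and so stands beside the sterol route, differed by 0.03 (95% interval -0.15 to 0.21).

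Squalene and sterol steps were represented by 12 enzymes, with 5 called higher in NZB, 1 called lower and 6 not called. Without SM replicate 2, 2 were called higher and 1 lower. Fdft1, the squalene synthase that commits farnesyl diphosphate to sterols, read 10.45, 10.27 and 10.09 in SM and 10.24, 10.33 and 10.34 in NZB, a difference of 0.03 (95% interval -0.17 to 0.24). Sqle, which oxidises squalene and is a rate-controlling step, read 8.90, 8.43 and 7.82 in SM and 9.57, 9.44 and 9.60 in NZB. The 3 NZB arrays were close together and all above the SM arrays, which were spread over more than 1 unit. Sqle was 2.23-fold higher in NZB (1.15, SE 0.21, limma adjusted p = 0.00514).

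Lss closes the ring to lanosterol, and Cyp51 removes the 14α-methyl group from it. Lss read 9.60, 9.32 and 8.97 in SM and 9.74, 9.82 and 9.72 in NZB, a difference of 0.46 (SE 0.13, limma adjusted p = 0.037). Cyp51 read 9.34, 8.96 and 7.97 in SM and 9.99, 9.52 and 10.02 in NZB, a difference of 1.09 (SE 0.29, limma adjusted p = 0.0277). In both genes the strains did not overlap but came close, SM replicate 1 being the nearest SM array. The call of Lss rested on 1 of its 3 probe sets, since it ended with their mean (adjusted p 0.0696), with the most variable one (0.114) and without probe sets of less specific design (0.112). It also ended without SM replicate 2 and without each NZB replicate in turn (highest adjusted p 0.106), and that of Cyp51 ended without SM replicate 2 and without NZB replicate 1 or 3 (highest adjusted p 0.101).

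The methyl groups at carbon 4 are removed by MSMO1, NSDHL and HSD17B7 acting together, and of their 3 genes 1 was called higher, 1 was called lower and 1 was not called. Msmo1 read 11.38, 10.89 and 10.10 in SM and 11.17, 10.94 and 11.41 in NZB, so that the strains overlapped, and the difference was 0.38 (95% interval -0.22 to 0.98, limma adjusted p = 0.345). Without SM replicate 3 it was 0.04. Nsdhl read 10.20, 9.83 and 8.98 in SM and 10.60, 10.37 and 10.54 in NZB, a difference of 0.83 (SE 0.25, limma adjusted p = 0.0415). Hsd17b7 read 9.65, 9.63 and 9.79 in SM and 9.41, 9.39 and 9.43 in NZB, every NZB array below every SM array. It was 1.21-fold lower in NZB (-0.28, SE 0.07, limma adjusted p = 0.0159). Nsdhl lost its call without SM replicate 2 and without each NZB replicate in turn (highest adjusted p 0.118), and Hsd17b7 without NZB replicate 2 (adjusted p 0.0521).

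The remaining enzymes reduce, shift or introduce double bonds in the sterol ring system. Dhcr7, the final reductase of the route through 7-dehydrocholesterol, read 9.94, 9.45 and 8.47 in SM and 10.73, 10.48 and 10.56 in NZB. All NZB arrays were above all SM arrays, and the 2.47-fold difference (1.30, SE 0.29, limma adjusted p = 0.0126) kept its call in each fit that left out an array, at 0.90 to 1.63. Ebp, the sterol isomerase, read 12.37, 12.19 and 11.94 in SM and 12.52, 12.38 and 12.52 in NZB. Its arrays did not overlap, yet the difference of 0.31 did not pass the test (SE 0.10, limma adjusted p = 0.062). The C14 reductase genes Tm7sf2 and Lbr, whose products share that reaction, differed by 0.25 (95% interval -0.09 to 0.59) and -0.05 (95% interval -0.21 to 0.12). Sc5d, the C5 desaturase, differed by 0.15 in its brightest probe set (95% interval -0.12 to 0.43), and its other probe sets are described below.

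**Figure D2:**
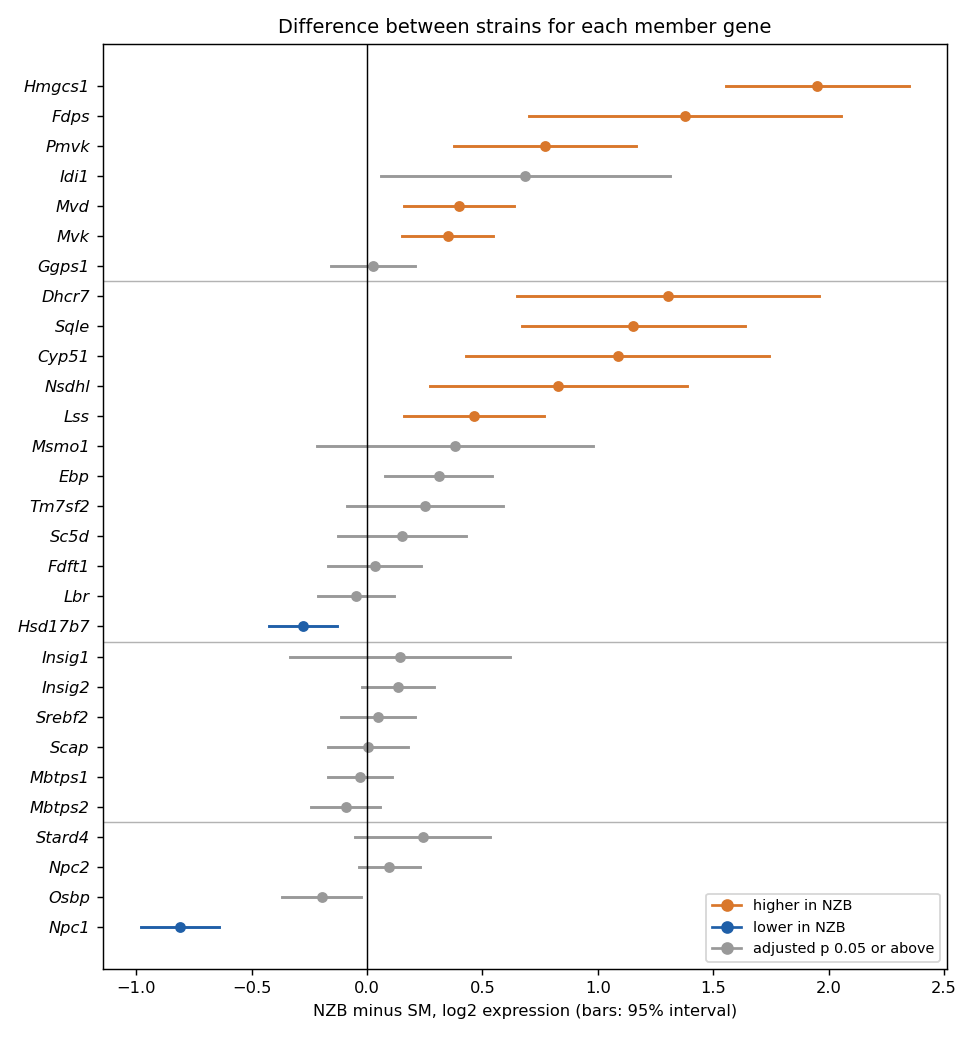
Difference between strains for each of the 29 measured members on the log2 scale, with 95% intervals of the limma fit, grouped by role. The intervals of Hmgcs1 (1.55 to 2.35) and Npc1 (-0.98 to -0.64) are the farthest from 0 on their sides, while those of the SREBP2 processing genes all include 0.

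Nsdhl, Ebp and Mbtps2 are X-linked, which bears on the array of SM replicate 2 with its low Xist. That array read 9.83 for Nsdhl and 12.19 for Ebp, between the other SM arrays in both cases, and 7.75 for Mbtps2, against 7.65 and 7.72 on the other SM arrays. The part of the Xist reading in these values was not tested.

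SREBP2 and its processing machinery showed no called difference: of 6 genes none was higher and none was lower (0 and 0 at an unadjusted p under 0.05). That count is of the brightest probe sets. With the mean of a gene's probe sets, or with its most variable one, 2 of the 6 were higher, Insig2 and Mbtps1, and Mbtps1 changed sign, from -0.03 to 0.36 (limma adjusted p = 0.0268) and 0.94 (limma adjusted p = 0.0396). Srebf2, which encodes SREBP2, read 9.44, 9.38 and 9.52 in SM and 9.41, 9.49 and 9.59 in NZB, a difference of 0.05 (SE 0.07, limma adjusted p = 0.678, 95% interval -0.11 to 0.21). Scap, its escort, differed by 0.00 (95% interval -0.17 to 0.18). The protease genes Mbtps1 and Mbtps2 differed by -0.03 (95% interval -0.17 to 0.11) and -0.09 (95% interval -0.24 to 0.06). These 4 intervals, of the brightest probe sets, reach from -0.24 to 0.21. The intervals of Hmgcs1, Fdps, Dhcr7 and Sqle lie wholly above that range, as does that of a dim Mbtps1 probe set (0.32 to 1.56). The arrays measure mRNA, and the cleavage that activates SREBP2 was not measured.

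The INSIG genes behaved differently from each other across mice. Insig1, itself a target of SREBP2, read 10.84, 10.39 and 9.77 in SM and 10.40, 10.49 and 10.54 in NZB. The NZB arrays were close together in the middle of the SM range, and the difference of 0.14 did not pass the test (SE 0.21, limma adjusted p = 0.68, 95% interval -0.34 to 0.62). Its sign turned without SM replicate 3 (-0.14, limma adjusted p = 0.443). Insig2 read 11.88, 11.97 and 12.02 in SM and 12.17, 12.01 and 12.10 in NZB in its brightest probe set, a difference of 0.14 (95% interval -0.02 to 0.29).

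Of the 4 measured genes of sterol traffic, Npc1 was lower in NZB and the other 3 did not pass the test. Npc1, which exports cholesterol from the lysosome, read 10.48, 10.67 and 10.71 in SM and 9.87, 9.79 and 9.77 in NZB. Every NZB array was well below every SM array. The gene was 1.75-fold lower in NZB (-0.81, SE 0.08, limma adjusted p = 0.000135) and stayed called without any single array, at -0.88 to -0.76. Npc2, the soluble protein that hands cholesterol to NPC1, read 11.26, 11.22 and 11.24 in SM and 11.36, 11.29 and 11.36 in NZB. Its difference of 0.10 did not pass the test (SE 0.06, limma adjusted p = 0.278).

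Osbp, which exchanges cholesterol for a phosphoinositide between the endoplasmic reticulum and the Golgi, read 10.34, 10.14 and 10.12 in SM and 9.93, 10.04 and 10.04 in NZB. The NZB arrays lay below the SM arrays, but the difference of -0.20 did not pass the test (SE 0.08, limma adjusted p = 0.0995). Stard4, a cytosolic sterol carrier and SREBP2 target, read 9.97, 9.94 and 9.51 in SM and 9.89, 10.24 and 10.01 in NZB, with overlapping strains and a difference of 0.24 (SE 0.13, limma adjusted p = 0.227).

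Macrophages also express the lysosomal genes, so macrophage markers were read as well. Of 11 such markers 8 were higher in NZB and 1 was lower (8.47% and 12.6% of all genes). Their summed level on the log2 scale was 13.1 to 13.3 in SM and 13.5 to 13.7 in NZB. The summed level of 6 B and plasma cell markers was 9.48 to 9.61 in SM and 12.6 to 13.7 in NZB. Its rise came mainly from Ighm (4.35) and Jchain (4.28). Ms4a1 (0.38), Mzb1 (0.29), Cd79a (0.18) and Cd79b (0.12) differed far less, and Cd79a and Cd79b did not pass the test. The summed level of 7 hepatocyte markers was 17.0 in each SM array and 16.9 in each NZB array. Of those 7, 2 were lower in NZB, the liver transcription factor gene Hnf4a (-0.38, SE 0.08, limma adjusted p = 0.0113) and Tat, which encodes a tyrosine-degrading enzyme (-0.73, SE 0.09, limma adjusted p = 0.000625), and none was higher (0 at an unadjusted p under 0.05). Without SM replicate 2, 7 macrophage markers were higher and 1 lower, and 2 hepatocyte markers were lower. That fit called 867 of all 18193 genes higher and 1510 lower. The part of these cells in the Npc1 and Npc2 values was not tested. In whole liver RNA, fewer cells of a type and less RNA per cell cannot be told apart.

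The enzymes varied together within SM. The array of SM replicate 3 was the lowest of all 6 in 16 of the 19 enzymes (84.2%), against 17.5% of all genes. With SM replicate 2 left out it was the lowest of 5 in 16 enzymes (23.5% of all genes). That count could not fall, since the lowest array stays lowest when another array is left out. In 17 of the 19 enzymes SM replicate 1 was the highest and SM replicate 3 the lowest of the SM arrays (89.5%, against 23.5% of all genes). The 2 exceptions were Ggps1 and Hsd17b7, the latter with its highest reading in SM replicate 3. The median distance of the enzymes from their own strain mean was 0.33 for SM replicate 1, 0.03 for SM replicate 2 and -0.34 for SM replicate 3. It was 0.03, -0.11 and 0.05 for NZB replicates 1, 2 and 3. Over all genes the same median lay between -0.01 and 0.01 on every array.

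The spread was therefore unequal between the 3 SM and the 3 NZB mice for this route. Most enzymes followed the same SM mice, so their number does not measure a strain difference in spread. The standard deviation over the 3 mice was larger in SM than in NZB for 17 of 19 enzymes, against 54.7% of all genes, and its median over the enzymes was 0.35 in SM and 0.13 in NZB (0.08 in each strain over all genes). Dhcr7 had a standard deviation of 0.75 in SM and 0.13 in NZB, Fdps had 0.76 and 0.20, and Insig1 had 0.54 and 0.07. Srebf2, at 0.07 and 0.09, showed no such gap. In the other SREBP2 processing genes apart from Insig1 SM replicate 3 was the lowest of 6 arrays in none, and 1 of 4 sterol traffic genes, Stard4, had it lowest.

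**Figure D3:**
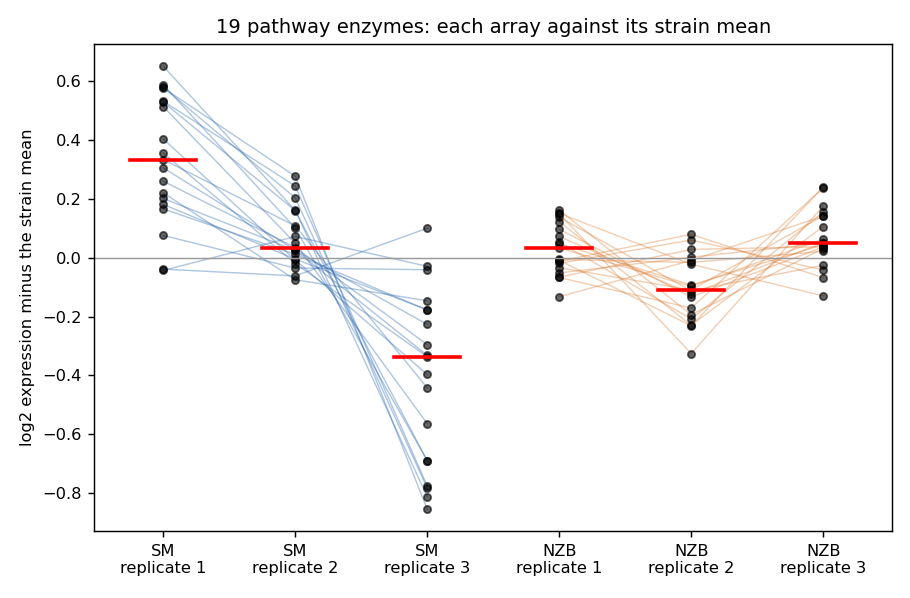
Each of the 19 pathway enzymes on each array, as log2 expression minus the mean of its own strain, with thin lines joining the arrays of a strain for 1 enzyme and red bars for the median. Most enzymes sit above the strain mean in SM replicate 1 (median 0.33) and below it in SM replicate 3 (median -0.34), and the NZB arrays stay nearer to 0.

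Leaving out SM replicate 3 lowered the differences and kept most calls. The median difference of the enzymes went from 0.40 to 0.30, and 9 enzymes were higher in NZB and 1 was lower. Hmgcs1 then differed by 1.73, Fdps by 0.95, Dhcr7 by 0.90, Sqle by 0.87, Cyp51 by 0.69 and Nsdhl by 0.48, all with a limma adjusted p of 0.0184 or less. Leaving out SM replicate 1 raised the median to 0.62 and the higher enzymes to 13, with Idi1 (0.95, limma adjusted p = 0.034), Ebp (0.41, limma adjusted p = 0.0173) and Tm7sf2 (0.43, limma adjusted p = 0.0307) added. Over the 6 fits that each leave out 1 array, the calls of Hmgcs1, Fdps, Sqle, Dhcr7 and Npc1 held throughout, and those of the other 7 called members each ended at least once. With variances that follow the expression level and resist outliers, the calls of Fdps, Dhcr7, Cyp51 and Nsdhl ended (adjusted p 0.0924, 0.0966, 0.144 and 0.164). Quantile normalization ended the call of Hsd17b7 (adjusted p 0.1), and aligning the array medians ended those of Lss and Nsdhl (adjusted p 0.0623 and 0.0589).

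**Figure D4:**
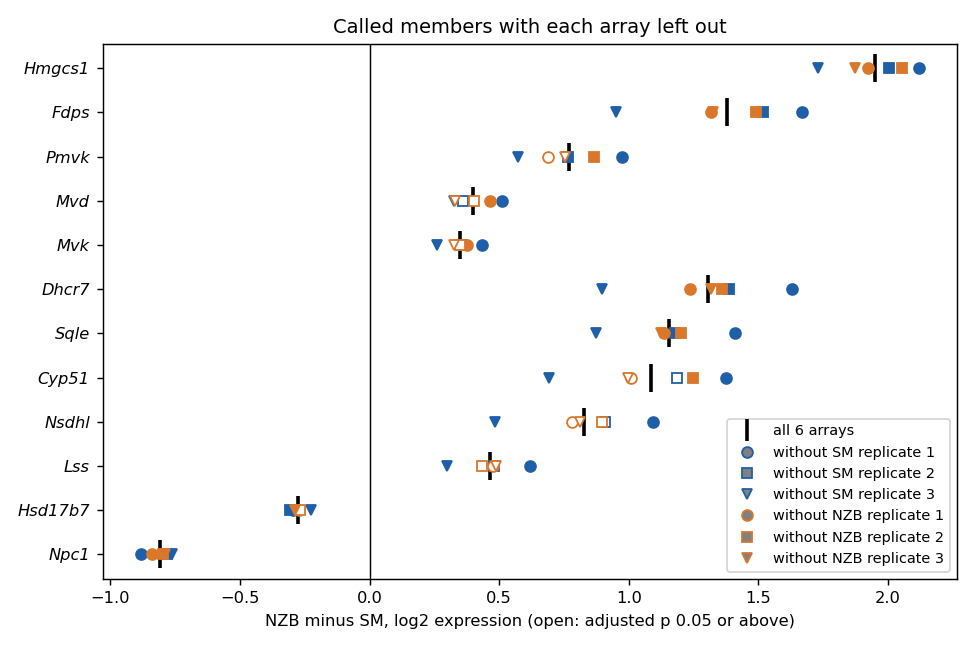
Differences of the 12 called members with all 6 arrays (black bars) and with each array left out in turn (symbols, filled where the adjusted p was under 0.05 and open otherwise). Leaving out SM replicate 3 gives the smallest difference for Hmgcs1 (1.73) and Fdps (0.95), and the points of Npc1 stay between -0.88 and -0.76.

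Several members are read by more than 1 probe set, and for some the choice of probe set decided the call. Tested over all 45037 probe sets, of which 6.09% were higher and 8.69% lower in NZB, 17 of the 64 member probe sets were higher, 3 were lower and 44 did not pass. Without SM replicate 2, 11 were higher and 3 lower. The shares of all probe sets just given belong to the fit with all 6 arrays and were not counted without SM replicate 2. Among all genes, 4.77% were called higher without that array. No gene had probe sets called in opposite directions. Hmgcs1 had 4 of 5 probe sets higher, with differences of 1.87 to 2.00. The remaining one read 4.75 to 5.35, under the highest Y-linked reading of 6.69.

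Sc5d was the clearest case of disagreement. Its brightest probe set gave the difference of 0.15 already described, with overlapping strains. Another read 10.12, 9.70 and 9.86 in SM and 10.75, 10.73 and 10.71 in NZB, a difference of 0.83 (SE 0.10, limma adjusted p = 0.000826). The last read 8.38, 8.33 and 8.38 in SM and 9.25, 9.28 and 9.17 in NZB, a difference of 0.87 (SE 0.06, limma adjusted p = 4.46e-05). In neither of these was SM replicate 3 the lowest array, whereas it was in the brightest one. The mean of the 3 probe sets differed by 0.62 (limma adjusted p = 0.00117).

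Insig2 had 1 of 3 probe sets higher in NZB, which read 11.57, 11.75 and 11.55 in SM and 12.16, 12.06 and 12.13 in NZB, a difference of 0.49 (SE 0.07, limma adjusted p = 0.00267). Its call held in all 13 alternative fits. The other 2 probe sets of Insig2 differed by 0.14 and 0.25 and did not pass. Which transcripts each of these probe sets detects was not analysed here.

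Mbtps1 had a dim probe set that read 5.28, 6.39 and 6.53 in SM and 6.85, 7.14 and 7.01 in NZB. Its difference of 0.94 fell just short of the threshold among all probe sets (SE 0.27, limma adjusted p = 0.0507). SM replicate 1 stood far below the other arrays in it, while the brightest probe set of the gene differed by -0.03. Stard4 had 1 of 3 probe sets higher (0.50, SE 0.13, limma adjusted p = 0.0337), and Fdft1 had 1 of 4 higher (0.33, SE 0.08, limma adjusted p = 0.0202), a dim one at 6.59 to 7.09. Hsd17b7 had 2 of 4 lower, at -0.28 and -0.36. Nsdhl and Lss, called among genes, did not pass among probe sets (adjusted p 0.0571 and 0.0514).

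**Figure D5:**
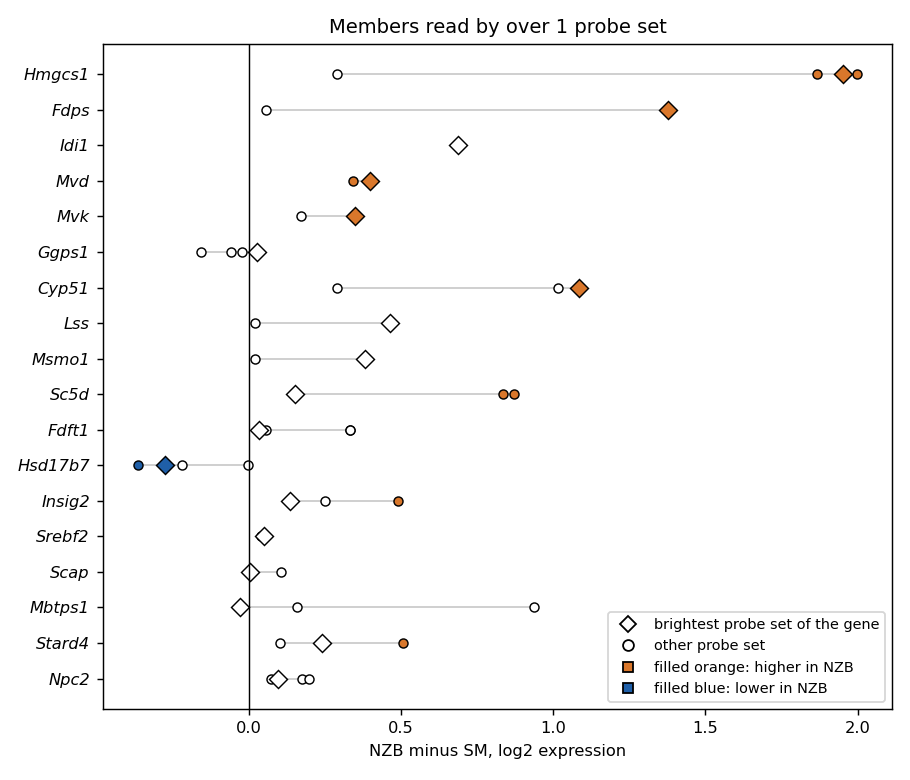
NZB minus SM for every probe set of the 18 members read by more than 1, with the brightest probe set as a diamond and fill marking a call among all probe sets. The 4 bright Hmgcs1 probe sets lie together near 2, and Sc5d, Insig2 and Stard4 have a called probe set away from an uncalled diamond.

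Genes around the listed members were read from lists of pathway genes. Of 9 measured further enzymes and targets linked to SREBP2, 3 rose in NZB and none fell (8.47% and 12.6% of all genes). None was lower at an unadjusted p under 0.05 either (0 genes). SM replicate 3 was the lowest of 6 arrays in 7 of the 9 (17.5% of all genes). Rdh11, a retinol dehydrogenase that SREBP factors raise, was 2.41-fold higher (1.27, SE 0.18, limma adjusted p = 0.00127), and Acss2, which makes acetyl-CoA from acetate, was 1.75-fold higher (0.80, SE 0.16, limma adjusted p = 0.0083). Mmab, whose promoter is shared with Mvk, was 1.14-fold higher (0.19, SE 0.06, limma adjusted p = 0.0464). The call of Mmab ended whichever array was left out (adjusted p 0.0726 to 0.146), and its most variable probe set differed by -0.11, while those of Rdh11 and Acss2 held in all 6 such fits.

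Branches that take isoprenoids away from sterols went the other way or did not pass the test. Of 12 measured genes 4 fell in NZB and none rose (12.6% and 8.47% of all genes, 0 higher at an unadjusted p under 0.05). Cox10, which farnesylates haem for cytochrome oxidase, differed by -0.64 (SE 0.07, limma adjusted p = 0.000376), and Nus1, a subunit of the dolichol-making prenyltransferase, by -0.43 (SE 0.07, limma adjusted p = 0.00208). The other 2 were Pggt1b and Icmt, which prenylate and methylate proteins. The calls of Cox10 and Nus1 held without any single array, those of Pggt1b and Icmt both ended without SM replicate 1, SM replicate 2 or NZB replicate 2, and each ended without 1 further array (NZB replicate 3 for Pggt1b, NZB replicate 1 for Icmt).

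Genes for the turnover of HMG-CoA reductase and of INSIG, and for holding SREBP back, numbered 9 measured. In NZB 1 was higher and 3 were lower (8.47% and 12.6% of all genes). Rnf145, an LXR-induced ubiquitin ligase that acts on SCAP, read 9.57, 9.86 and 10.10 in SM and 9.22, 9.11 and 9.02 in NZB, a difference of -0.73 (SE 0.12, limma adjusted p = 0.00311). Paqr3, a Golgi anchor for SCAP and SREBP, read 7.20, 7.42 and 7.81 in SM and 6.67, 6.77 and 6.59 in NZB, a difference of -0.80 (SE 0.13, limma adjusted p = 0.00315). In both genes SM replicate 3 was the highest array, the reverse of its place in the enzymes. Erlin1, an endoplasmic reticulum protein of INSIG and reductase turnover, was higher (0.37, SE 0.06, limma adjusted p = 0.00203), and Rnf139, another such ligase gene, was lower (-0.29, SE 0.06, limma adjusted p = 0.0133), a call that ended without SM replicate 2 or NZB replicate 3.

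LXR receptors and their targets, the genes that respond to excess sterol, numbered 8 measured. Of these, 5 were lower and 1 was higher in NZB (12.6% and 8.47% of all genes). The lower ones were Lpcat3, a phospholipid acyltransferase (-0.51, SE 0.10, limma adjusted p = 0.00654), the sterol exporter half-transporters Abcg8 (-0.47, SE 0.08, limma adjusted p = 0.00311) and Abcg5, the LDL receptor ligase gene Mylip, and Srebf1, which encodes the lipogenic SREBP1 (-0.33, SE 0.09, limma adjusted p = 0.0285). Abcg1, a sterol exporter that macrophages express strongly, was higher (0.39, SE 0.06, limma adjusted p = 0.00208). The receptor gene Nr1h3 (0.02, SE 0.06, limma adjusted p = 0.844) and the target Abca1 (-0.26, SE 0.09, limma adjusted p = 0.0717) did not pass the test. SM replicate 3 was the highest SM array in 6 of these 8 genes (75.0%, against 36.2% of all genes). Targets of SREBP1 in fatty acid synthesis gave 1 higher and 4 lower of 13 (8.47% and 12.6% of all genes). Among the lower ones were Thrsp, a lipogenic regulator, at -1.64 (SE 0.24) and the elongase gene Elovl6 at -0.89 (SE 0.25). The higher one was Elovl5, another elongase gene (0.27, SE 0.07). The median of the cholesterol enzymes was 0.40 and that of these 13 genes was -0.10. The call of Srebf1 ended in 4 of the 6 fits with an array left out, all but those without SM replicate 3 and without NZB replicate 2 (highest adjusted p 0.106), and leaving out SM replicate 1, NZB replicate 1 or NZB replicate 3 ended that of Elovl6 (highest adjusted p 0.132). Abcg5 lost its call without SM replicate 2, NZB replicate 1 or NZB replicate 2 (highest adjusted p 0.0645).

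Among 21 other sterol binding and transfer proteins, 2 were higher and 5 were lower in NZB (8.47% and 12.6% of all genes). The oxysterol-binding relative Osbpl2 differed by -0.55 (SE 0.07, limma adjusted p = 0.000625) and the lysosomal membrane protein gene Scarb2 by -0.57 (SE 0.09, limma adjusted p = 0.00187). Scarb2, like Npc1, encodes a lysosomal membrane protein that binds cholesterol, and its arrays did not overlap between strains. Lipa, the lysosomal acid lipase that frees cholesterol from esters upstream of NPC2, was higher (0.26, SE 0.06, limma adjusted p = 0.0185), as was Osbpl7 (0.31, SE 0.08, limma adjusted p = 0.0183). The call of Lipa ended without SM replicate 2 or NZB replicate 1 (highest adjusted p 0.0629), that of Osbpl7 without SM replicate 2, NZB replicate 2 or NZB replicate 3 (highest adjusted p 0.0757), and that of Elovl5 without SM replicate 2, NZB replicate 1 or NZB replicate 3 (highest adjusted p 0.101). Without SM replicate 2 the counts of higher and lower genes were 2 and 0 for the further SREBP2-linked genes and 0 and 2 for the isoprenoid branches. They were 1 and 2 for reductase and INSIG turnover and 1 and 3 for LXR receptors and targets. For the SREBP1 targets they were 0 and 4, and for the other sterol binding and transfer proteins 0 and 4. Over all 18193 genes that fit called 867 higher (4.77%) and 1510 lower.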

How the data were processed

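Values were taken from the deposited series table, which holds 45037 probe sets on 6 arrays, with each array column tied to a mouse through its title (0 columns unused). The authors made them with RMA, per the submitters' processing notes; no source used here gives its version or settings. The deposited values span a range that marks them as log2 expression, 3.43 to 14.9. Array medians were 6.60 to 6.66, and no further normalization was applied. RMA compresses differences near background, and strain variants under single probes can alter binding, which was not analysed here. Their number, 3 arrays per strain, limits the precision.

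Probe sets were named from the platform annotation, with symbols updated by Entrez ID through RefSeq (GRCm38.p6). Of them, 34945 had 1 gene and 932 had several, among these 1 shared by Mbtps2 and Yy2 that was left out. The brightest probe set over all arrays stood for a gene. The strain difference was fitted in R 4.3.3 with the lmFit and eBayes functions of limma 3.58.1 (trend and robust off, two-sided, Benjamini-Hochberg over 18193 genes, and separately over all probe sets); the script was tested on simulated data. An exact permutation test of 3 against 3 mice cannot go below 0.1 and was not used.

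All measured members are named; from each further list up to 2 genes per direction with the largest called differences are named, and Srebf1. Mmab, Rnf139, Pggt1b, Icmt, Abcg5, Mylip, Hnf4a and Tat were named after their values were seen, to complete small counts. So were Nr1h3, Abca1 and the B and plasma cell markers. The members and lists were chosen with earlier results of these data known. Alternatives were array median alignment, quantile normalization, filters on dim and on cross-hybridizing probe sets, other probe set choices, trended and robust variances, array weights, a replicate block and leaving out each array. Counts of non-overlapping arrays and of list genes with an array left out were added after seeing the data.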

Additional observations from a re-analysis of the deposited data

How the results depend on the processing

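Hmgcs1, Sqle and Npc1 kept their calls under every alternative run, and 9 other called members lost theirs at least once. Sqle, Npc1, Pmvk, Dhcr7 and Nsdhl are read by 1 probe set each, so other choices of probe set could not change their differences. Members higher in NZB numbered 10 (8.47% of all genes), and 6 with trended and robust variances (8.53% of all genes). Leaving out single arrays gave 4 to 13 (4.77% to 7.93% of all genes). Members lower in NZB numbered 2, and 1 after quantile normalization or at 1.5-fold or more; leaving out single arrays gave 1 to 2. Higher mevalonate enzymes numbered 5, and 3 at 1.5-fold or more (2 to 6 with arrays left out). Higher squalene and sterol enzymes numbered 5, with 3 after median alignment and 2 with trended and robust variances (2 to 7 with arrays left out), and the lower one was 0 after quantile normalization and at 1.5-fold or more (0 to 1). Members of SREBP2 processing higher in NZB numbered 2 with the mean of a gene's probe sets and 2 with its most variable one, Insig2 and Mbtps1; Mbtps1 then differed by 0.36 and 0.94, the reverse of its brightest probe set. Mmab turned to -0.11 with its most variable probe set (adjusted p 0.637), and likewise when probe sets of less specific design were dropped (adjusted p 0.646). One traffic gene, Stard4, was higher with the most variable probe set, so that 1 was called.

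Member probe sets higher in NZB numbered 17, and 11 without those marked for cross-hybridization or shared transcripts (8 to 25 with arrays left out). Lower ones numbered 3, with 1 after quantile normalization (1 to 4 with arrays left out). Shares over all probe sets were not counted for these alternatives. Over all genes, leaving out single arrays gave 867 to 1443 higher and 1480 to 2413 lower. The share of calls that were higher was 40.3%, with 30.3% after median alignment. The replicate block left 9 members higher and ended only the call of Mvd among the members. Same-numbered arrays deviated from their strain means with correlations of -0.07 to 0.05. With 3 arrays per strain such correlations cannot exclude a pairing of the mice, and whether the numbers pair them is not known here. The causes of these shifts were not tested. The 3 arrays per strain limit the precision, and Ebp, whose arrays did not overlap at a difference of 0.31, did not pass the test.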
